A study of Mus musculus with 4 samples.

Results

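Heat shock proteins and DnaJ proteins (J proteins) are the chaperone system examined here, taken as every feature whose symbol begins with Hsp and a letter from a to h or a digit, or with Dnaja, Dnajb or Dnajc and a digit, pseudogene names left out. This gave 76 genes of the 32285 in the count matrices, 31 with Hsp symbols and 45 with Dnaj symbols. Single nuclei were sequenced from the cerebral cortex of mice in which floxed Gclc, the gene for the catalytic subunit of the enzyme that makes the glutathione precursor, was crossed with a CaMKII-Cre transgene, whose promoter is active mainly in forebrain excitatory neurons. All 4 libraries carried this knockout (GCLC-KO), with 1 mouse each, 2 at 3 months of age, named 3M-1 and 3M-2, and another 2 at 6 months, named 6M-1 and 6M-2, so the comparison is one of age among knockouts and no wild-type library was analysed here. Where 4 values follow each other, they stand for 3M-1 first, then 3M-2, then 6M-1, then 6M-2. The mice had received no treatment, and nuclei were sorted on DAPI, a DNA stain, before 3′ droplet sequencing.

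Chaperones bind unfolded or partly folded proteins and help them to fold, to assemble or to be degraded. HSP70 proteins work in cycles of ATP hydrolysis that J proteins start and nucleotide exchange factors such as the HSP110 proteins complete, HSP90 acts on later folding stages of kinases and receptors, and small heat shock proteins hold denatured proteins without ATP. Constitutive members serve every cell, while the inducible ones are switched on by heat shock factor 1 (HSF1) on binding heat shock elements, repeats of GAA and its inverse, and a separate set in the endoplasmic reticulum (ER) answers to unfolded protein there.

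The kept nuclei numbered 30515 of 30784 deposited, with 59262228 to 65894316 UMIs (unique molecular identifiers, each counted as 1 captured RNA molecule) per library. Each nucleus was assigned to a cell type where at least 3 markers of that type had a UMI and their share was at least 2 times that of any other list, and 23415 nuclei (76.7%) entered 6 types that are X-like by this gate and are called by the type's name for short: 13066 excitatory, 3028 inhibitory, 4422 oligodendrocyte, 639 oligodendrocyte precursor (OPC), 195 astrocyte and 2065 microglia nuclei. Each type's own markers summed to at least 3115 CPM (UMIs per 1000000 UMIs of that type and library) in every library, and no marker was at 0. The highest level of any list in a type other than its own was that of the inhibitory list in OPC, at 4804 CPM, against 12319 to 12843 CPM in inhibitory nuclei. Libraries shared 12 to 19 cell barcodes with each other. Gclc stood at 42.6, 33.6, 33.9 and 36.7 CPM in excitatory nuclei, which checks nothing, since reads from the 3′ end also come from a transcript without the deleted part. Each group is thus 2 mice, and the p-values measure the spread between these libraries.

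Heat shock elements were looked for in the promoters, and the stretches of the inducible members whose levels are described per nucleus are shown. RefSeq promoters (GRCm38.p6, from 250 bases before the transcription start to 50 after) matched 61 of the 76 genes. The others, among them Hsp90aa1, Hsp90ab1, Hspa8 and Hspa9, were not searched. The 2-unit element, GAANNTTC or TTCNNGAA (each its own reverse complement, and the forms may overlap), was in 16 of the 61 genes (26.2%) and in 16.97% of all 27025 genes with a promoter. The 3-unit element, GAANNTTCNNGAA or its reverse complement TTCNNGAANNTTC, was in 4 of the 61 (Hspd1, Hspe1, Hsph1 and Dnajb6) and in 0.662% of all. The stretches from base −130 to base −11 before the start of the inducible HSP70 genes Hspa1a (chr17:34972167-34972286, minus strand) and Hspa1b (chr17:34959249-34959368, minus strand) and of the small heat shock protein gene Hspb1 (chr5:135887789-135887908, plus strand) are given 5′ to 3′, with the elements in capitals.
Hspa1a: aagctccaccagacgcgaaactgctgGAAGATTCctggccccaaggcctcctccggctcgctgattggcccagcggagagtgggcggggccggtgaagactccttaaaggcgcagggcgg
Hspa1b: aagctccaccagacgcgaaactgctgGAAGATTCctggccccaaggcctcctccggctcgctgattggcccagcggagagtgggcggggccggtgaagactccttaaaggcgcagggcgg
Hspb1: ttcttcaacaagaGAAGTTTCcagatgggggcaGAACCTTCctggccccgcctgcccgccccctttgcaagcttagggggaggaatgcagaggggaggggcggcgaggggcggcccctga
The Hspa1a and Hspa1b stretches were identical in 120 of 120 bases, with 1 element at base −104, so 1 sequence counts for 2 of the 16 genes. Hspd1 and Hspe1 overlap on opposite strands, and their elements may likewise be the same bases counted for both. Hspb1 held elements at −117 and −97. Dnajb1, the J protein partner of inducible HSP70, held neither form in its promoter window. A match is a run of letters and not a measured site.

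All 76 genes had at least 1 UMI in the kept nuclei, 9 of them under 100 UMIs (Hspb2, Hspb6, Hspb7, Hspb8, Hspb9, Dnajb13, Dnajc5g, Dnajc22 and Hspg2) and 26 over 10000. Levels differed with cell type in rank. The 3 highest mean CPM values were those of Dnajc6, Dnajc1 and Dnaja2 in excitatory nuclei (316, 315 and 151), Dnajc6, Dnajc1 and Hsp90ab1 in inhibitory nuclei (327, 188 and 158), and Hsp90ab1, Hsp90aa1 and Dnajb2 in oligodendrocytes (319, 236 and 235). They were Dnajc1, Hsp90ab1 and Dnaja2 in OPC (260.4, 223 and 121), Dnajc1, Hsp90ab1 and Dnajc3 in astrocytes (266, 221 and 160.4), and Dnajc1, Dnajc7 and Hsp90ab1 in microglia (318, 231 and 224). Dnajc1, an ER membrane J protein, spans 197 kb of genome and Dnajc6 146 kb, against 5.50 kb for Hsp90ab1, and the part of gene span in these nuclear levels was not tested. Per kb of annotated exon (GENCODE M21) Hsp90ab1, the constitutive cytosolic HSP90, ranked first in the 4 glial types, from 73.6 CPM per kb in astrocytes to 106 in oligodendrocytes, and Dnajc6 ranked first in both neuronal types, at 53.4 and 55.3. A UMI from the 3′ end counts a molecule once whatever its length, and exons were merged over all transcripts. This second ranking thus favours genes with little exon and is not an abundance corrected for length.

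Neurons and glia differed in most of these genes, as they did in most genes. In one fit over the 24 sums (6 types by 4 libraries, with the mouse as a block), the mean of the 2 neuronal types was set against the mean of the 4 glial types by quasi-likelihood F-tests in edgeR, adjusted over 14316 genes after Benjamini and Hochberg. Of 56 members tested, 34 passed the threshold of 0.05, and DESeq2 called 34 too. The share was 60.7% against 66.4% of all genes tested. They were 17 higher in neurons (37.1% of all genes) and 17 lower (29.3%), and the median log2 difference was 0.00 over the members and 0.03 over all genes. The remaining 20 members had too few UMIs to be tested, among them Hspa1a, Hspa1b, Hspb1, Hspa2, Hspb6 and Hspb8. Log2 differences from these fits are given with their SE. The split rests on the scaling: with library totals alone in place of TMM factors the median of all genes moved from 0.03 to −0.20, and 12 members were higher and 24 lower.

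**Figure D1:**
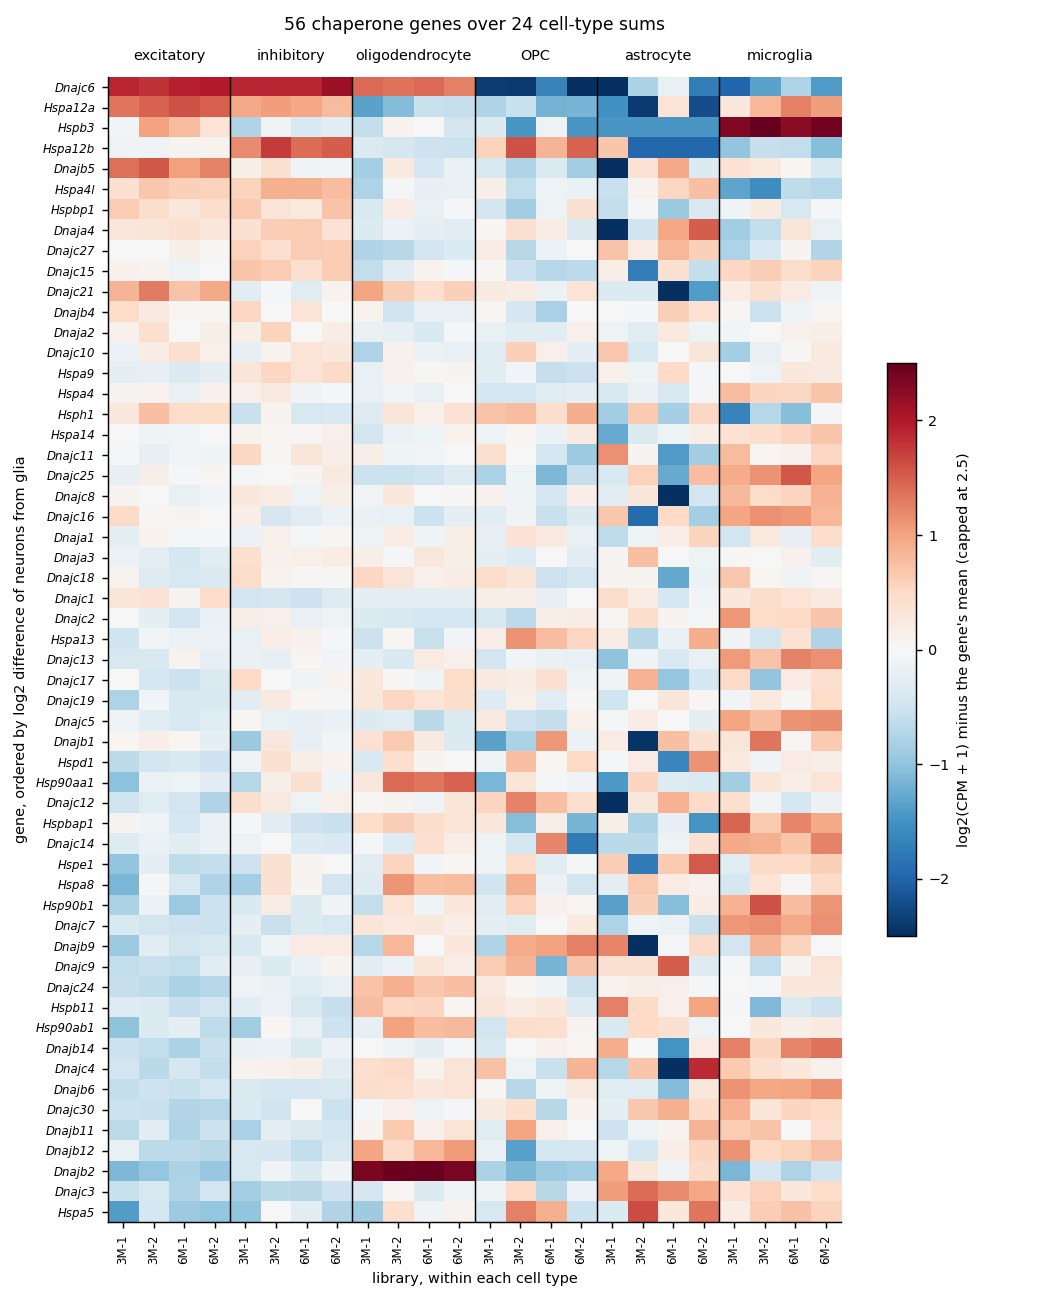
Levels of the 56 tested chaperone genes in each cell type and library, as log2(CPM + 1) minus the gene's mean over the 24 sums (columns are libraries within cell types, rows are genes ordered by the log2 difference of neurons from glia, and colours are capped at 2.5). Dnajc6 and Hspa12a lead the genes higher in neurons, Hspa5 and Dnajc3 those lower in neurons, and Dnajb2 stands out in all 4 oligodendrocyte sums.

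Among the J proteins of class C, which carry a J domain without the other parts of the bacterial DnaJ, 5 of 24 tested were higher in neurons and 6 lower, against 37.1% and 29.3% of all genes. Dnajc6 encodes auxilin, the brain J protein that brings HSC70 to clathrin-coated vesicles for uncoating. Its CPM was 316, 293, 323 and 331 in excitatory nuclei, 312, 314, 313 and 369 in inhibitory nuclei and 225, 215, 222 and 199 in oligodendrocytes. In OPC it was 15.2, 15.0, 25.6 and 13.7 CPM, in astrocytes 5.29, 47.5, 73.4 and 24.4 and in microglia 20.2, 32.1, 48.5 and 30.5, so neuronal and oligodendrocyte libraries did not overlap with those of the other 3 types. The neuronal excess was 3.05 ± 0.11 on the log2 scale (adjusted p = 1.05e-20), while oligodendrocytes alone stood 1.71 ± 0.13, adjusted p = 3.65e-13, above the mean of the 5 other types. The summed excitatory markers were lower in 3M-1 than in the other libraries in astrocytes (179.8 against 286 to 449 CPM) and microglia (233 against 335 to 459 CPM), as was Dnajc6, and their part in its level there was not tested. Dnajc27, a Rab-like GTPase with a J domain, was 31.6 to 50.1 CPM over the neuronal libraries. It was higher in neurons than in the mean of the glial types by 0.68 ± 0.09, but did not set neurons apart from astrocytes. Its mean was 48.9 CPM in astrocytes, beside 47.6 in inhibitory and 32.7 in excitatory nuclei. In oligodendrocytes, OPC and microglia it was 21.2, 28.8 and 23.6 CPM. Dnajc5, the cysteine string protein of synaptic vesicles, did not pass in this contrast (−0.08 ± 0.08, adjusted p = 0.414).

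Of the HSP70 genes, 4 of 7 tested were called higher in neurons and 2 lower, beside the same 37.1% and 29.3% of all genes. The calls of Hspa9 and Hspa14 for neurons did not hold under every scaling. Hspa12a, a distant HSP70 relative abundant in brain, had 82.5, 91.4, 99.1 and 92.8 CPM in excitatory nuclei and 62.6, 66.9, 63.4 and 56.2 in inhibitory nuclei. It had 38.5, 57.8, 78.1 and 66.8 CPM in microglia but 12.0, 14.7, 21.6 and 21.1 in oligodendrocytes and 18.7, 21.4, 13.5 and 13.7 in OPC. The neuronal libraries overlapped only with the microglial ones, and the difference was 2.00 ± 0.12. Its relative Hspa12b was low in count, with 50, 64, 67 and 57 UMIs (7.81, 12.0, 9.25 and 10.1 CPM) in inhibitory nuclei and 4.67, 10.7, 6.02 and 9.80 CPM from 4 or 5 UMIs per library in OPC, against 2.56 to 3.11 CPM in excitatory nuclei. Hspa12b may have passed the filter on low counts mainly through its inhibitory sums, so its difference between neurons and glia carries no weight of its own. The constitutive cytosolic HSC70, Hspa8, was lower in neurons (−0.39 ± 0.09), with 50.6, 109, 85.1 and 65.8 CPM in excitatory nuclei and 90.6, 243, 191 and 195 in oligodendrocytes. Hspa9, the mitochondrial HSP70, was 0.35 ± 0.07 in neurons and highest in inhibitory nuclei, at 77.7, 90.6, 80.6 and 88.9 CPM, but the neuronal excess was lost with library totals alone (0.11, adjusted p = 0.199). Hspa2 stayed at 70, 100, 80 and 67 UMIs in excitatory nuclei, near 2.26 CPM.

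All 3 HSP110 genes, the nucleotide exchange factors of HSP70, were called higher in neurons beside 37.1% of all genes, but only Hspa4l held under every scaling. Hspa4l had 59.0, 74.6, 74.4 and 67.9 CPM in inhibitory and 52.1, 63.8, 60.6 and 59.6 in excitatory nuclei, against 15.4, 12.8, 25.0 and 23.7 in microglia, with no overlap, and a difference of 1.20 ± 0.09. Hsph1 was highest in OPC and excitatory nuclei (49.5 ± 6.76 and 42.2 ± 6.36 CPM, SD, n = 4) and lowest in microglia (17.2 ± 8.55 CPM). Its neuronal excess of 0.28 ± 0.11 was lost with DESeq2 (adjusted p = 0.0540), RLE factors (0.0556) and library totals alone (0.800). Hspa4, at 0.30 ± 0.06, was lost with library totals alone (adjusted p = 0.461), as were Hspa14 and Dnajc10.

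Of the class B J proteins, which include the main stress-linked DNAJB genes, 5 of 9 tested were lower in neurons (29.3% of all genes) and 2 higher (37.1%). Dnajb5 had the larger difference for neurons, 1.23 ± 0.17, but was high in excitatory nuclei alone, at 22.3, 25.3, 17.4 and 20.3 CPM. These 4 excitatory libraries lay above every other library. Inhibitory nuclei had 8.90, 10.7, 7.32 and 7.60 CPM, near the means of microglia (8.62) and astrocytes (8.24). Oligodendrocytes (6.57) and OPC (5.01) had lower means. Dnajb2, a J protein with ubiquitin-interacting motifs, separated oligodendrocytes from all other types, and was lower in neurons by 0.69 ± 0.10. Dnajb6, an inhibitor of polyglutamine aggregation, was lower in neurons (−0.50 ± 0.08), at 72.8 ± 3.32 CPM in excitatory and 78.9 ± 1.73 in inhibitory nuclei (SD, n = 4). Dnajb1, partner of HSP70 in the heat shock response, was low everywhere, with 4.65, 5.11, 4.69 and 3.59 CPM in excitatory nuclei, and did not pass (−0.11 ± 0.32). Of the 4 class A J proteins, Dnaja2 and Dnaja4 were higher in neurons (0.53 ± 0.07 and 0.69 ± 0.17) while Dnaja1 (0.18 ± 0.08) and the mitochondrial Dnaja3 (0.16 ± 0.09) did not pass. Hspbp1, a nucleotide exchange factor of HSP70, was higher in neurons (0.96 ± 0.13), as was Dnajb4 (0.54 ± 0.09). The mean of Dnajb4 was nonetheless 45.0 CPM in astrocytes, beside 43.3 in excitatory and 44.1 in inhibitory nuclei. In oligodendrocytes, OPC and microglia it was 33.1, 31.2 and 34.3 CPM. Dnajb12 (−0.58 ± 0.12), Dnajc30 (−0.56 ± 0.15) and Dnajc4 (−0.49 ± 0.19) were lower in neurons.

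Of the 11 ER members, 6 were lower in neurons and 1 was higher, beside 29.3% and 37.1% of all genes, with a median log2 difference of −0.42 against 0.03. Hspa5, the ER HSP70 known as BiP, was 14.7, 29.5, 21.1 and 20.2 CPM in excitatory nuclei and 46.2, 62.6, 67.5 and 60.1 in microglia, and was lower in neurons by 0.95 ± 0.11. Dnajc3, the inhibitor of eIF2α kinases P58IPK, followed with −0.69 ± 0.07, Dnajb11, a BiP co-chaperone, with −0.58 ± 0.13, and Hsp90b1, the ER HSP90 (GRP94), with −0.39 ± 0.08. Dnajc10, an ER reductase, was the one higher (0.41 ± 0.09), and Dnajb9 did not pass (−0.42 ± 0.22). The cytosolic HSP90 Hsp90ab1 was also lower in neurons (−0.47 ± 0.07), while the inducible Hsp90aa1 did not pass (−0.15 ± 0.08). Of the mitochondrial chaperonins, Hspe1 was lower (−0.35 ± 0.13) and Hspd1 did not pass (−0.15 ± 0.11).

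To place each gene, every cell type was also set against the mean of the 5 others in the same fit. In CPM, which is scaled by library totals alone, the 4 libraries of 1 type lay above all 20 libraries of the other types for 18 of the 56 members (32.1%, against 37.8% of all genes tested). These were 13 in microglia (16.2% of all genes), 2 in oligodendrocytes (5.35%), 2 in excitatory nuclei (4.38%), 1 in astrocytes (4.99%) and none in inhibitory nuclei or OPC (3.88% and 2.98%).

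In oligodendrocytes, 16 members were higher and 5 lower (30.5% and 27.2% of all genes). Dnajb2 (chr1:75236406-75245692 in GRCm38) was 226, 242, 245 and 228 CPM there and at most 84.6 CPM in any other library, a difference of 3.06 ± 0.08, adjusted p = 6.30e-25. Dnajc24, a J protein of the diphthamide pathway, was 123, 139.8, 121 and 126 CPM, above every other library (1.05 ± 0.08, adjusted p = 3.34e-13). Hsp90aa1 was 125, 273, 260.4 and 286 CPM, so that 3 libraries lay far above the highest of the other types (148 CPM, an astrocyte library) and 3M-1 did not (1.49 ± 0.08, adjusted p = 1.63e-16). Hsp90ab1, at 173, 405, 346 and 352 CPM, and Hspa8 also had 3M-1 as the lowest library, with differences of 0.87 ± 0.08 and 0.85 ± 0.10. Dnajb12, an ER membrane J protein, was 58.9, 40.9, 52.3 and 61.8 CPM (1.20 ± 0.11), overlapping with microglia. Hspa12a was the lowest against the other types, −0.96 ± 0.20. With library totals alone the split was 15 higher and 12 lower, and with DESeq2 16 and 9. These scalings moved the median of all genes from 0.03 to −0.12 and −0.08, and called 8103 and 8703 of 14316 genes.

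In microglia, 16 members were higher and 15 lower (32.1% and 33.1% of all genes), and with library totals alone 25 and 7, since that scaling moved the median of all genes in this contrast from −0.05 to 0.30. Dnajb6 was 231, 207, 208 and 231 CPM in microglia, against at most 143 CPM elsewhere (0.89 ± 0.09, adjusted p = 2.16e-10). Dnajc7, a cytosolic co-chaperone with tetratricopeptide repeats, was 230.0, 241, 212 and 241 CPM (0.95 ± 0.08), and Dnajc13, a J protein of endosomes, 203, 159, 228 and 213 (0.91 ± 0.08). Dnajc5 was 129, 109, 143 and 146 CPM (0.90 ± 0.10), and stood above every library of neurons, in which 49.3 to 66.5 CPM were found. Hsp90b1 was 129, 213, 119 and 151 CPM (0.91 ± 0.10) and Hspa4 203, 173, 171 and 194 (0.42 ± 0.08). Hspb3, a small heat shock protein known from muscle, had the largest difference (4.17 ± 0.45, adjusted p = 3.71e-09) from few molecules. It had 13, 10, 16 and 16 UMIs, or 12.5, 16.1, 12.1 and 13.5 CPM. The astrocyte libraries had 0 UMIs and excitatory nuclei 1.62 to 4.45 CPM. Only its microglial libraries were high enough to pass the filter on low counts, so its rank and p-value there carry no weight of their own. The others that lay wholly above in CPM were Dnajc2, Dnajc8, Dnajc16, Dnajc25, Hspa14 and Hspbap1. Of these, Hspa14 did not pass in the edgeR contrast (0.28 ± 0.13, adjusted p = 0.0732). CPM rests on library totals alone, the scaling that moved genes up in microglia. Lower in microglia were Dnajc6 (−2.03 ± 0.20), Hspa4l (−1.56 ± 0.16), Hsph1 (−1.35 ± 0.19) and Dnajb2 (−1.24 ± 0.15).

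In astrocytes, 2 members were higher and 6 lower (14.7% and 15.3% of all genes), from 36 to 71 nuclei per library. With library totals alone or DESeq2 the split was 4 and 4. There the median of all genes moved from −0.19 to −0.07 and −0.06, with 4037 and 4280 of 14316 genes called. Dnajc3 was 148, 190.2, 163 and 140.1 CPM, against at most 108 CPM in any other library (1.26 ± 0.16, adjusted p = 1.04e-07). Hspa5 was 31.7, 127, 48.9 and 104 CPM, with its libraries spread over those of OPC and microglia (0.92 ± 0.27, adjusted p = 0.00881), and the call was lost without 3M-2 or without 6M-2 (adjusted p = 0.152 and 0.0747). In OPC, 4 were higher and 11 lower (21.0% and 13.2%), Hsph1 (0.76 ± 0.17, adjusted p = 6.47e-04) among the first and Dnajc6 (−2.84 ± 0.25), Hspa12a (−1.24 ± 0.26) and Dnajb2 (−1.18 ± 0.18) among the second.

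Excitatory and inhibitory nuclei were each set against the same mean of other types, and not tested against each other. Excitatory nuclei had 19 members higher and 22 lower than the mean of the other types (36.3% and 30.3% of all genes), and inhibitory nuclei 14 and 12 (34.1% and 26.3%). With library totals alone the members split 11 and 30 in excitatory nuclei, where 10277 of 14316 genes were called. The median of all genes there moved from 0.01 to −0.29. In inhibitory nuclei the split was then 12 and 18, with 8708 of 14316 genes called and the median moved from 0.03 to −0.05. Dnajc21, a J protein of ribosome assembly, was 61.8, 84.2, 55.5 and 65.5 CPM in excitatory and 27.5, 32.2, 26.9 and 35.7 in inhibitory nuclei, and Dnajc1 was 315, 328, 266 and 350.5 and 182, 190.5, 177 and 202, in both cases without overlap. Hsph1 was higher in excitatory nuclei (0.83 ± 0.10) and lower in inhibitory nuclei (−0.38 ± 0.12) against the other types. Dnajc15, a mitochondrial J protein, was 61.5, 58.5, 49.7 and 59.0 CPM in inhibitory nuclei (0.75 ± 0.11) and 40.3, 39.4, 34.3 and 37.4 in excitatory nuclei.

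**Figure D2:**
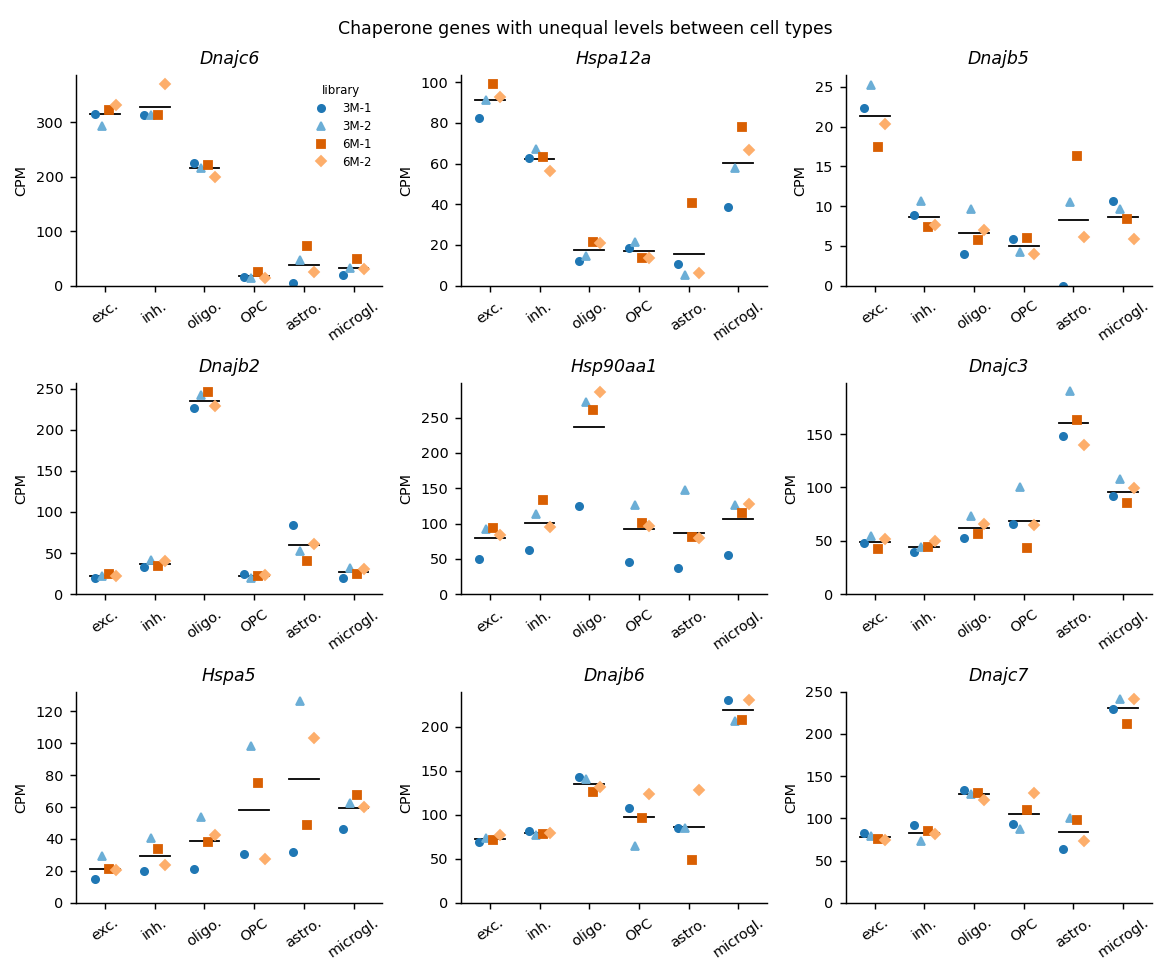
CPM of 9 chaperone genes in the 4 libraries (symbols) of each cell type, with the mean of the 4 as a bar and a linear axis from 0. Dnajb2 lies at 226 to 245 CPM in oligodendrocytes and Dnajc3 at 140.1 to 190.2 in astrocytes, and 3M-1 is the lowest library for Hsp90aa1 in every type.

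Genes around the chaperones were taken from 2 lists, one of heat shock factors and co-chaperones (42 genes) and one of ER stress genes (23 genes). Of the first, 39 were tested, 13 were higher in neurons and 8 lower (37.1% and 29.3% of all genes), with a median log2 difference of 0.09 against 0.03 over all genes. Hsf1, the factor of the heat shock response, was 0.35 ± 0.11 and Hsf2 0.30 ± 0.11. Bag3, which links HSP70 to autophagy, was −3.01 ± 0.31 from 290 UMIs in all kept nuclei. With so few it may have passed the filter on low counts through glial sums alone, so this difference carries no weight of its own. Cryab, αB-crystallin, a small heat shock protein outside the symbol rule, was −2.41 ± 0.24 and stood 4.73 ± 0.09 above the other types in oligodendrocytes, where 18 of 39 genes of this list were higher and 3 lower (30.5% and 27.2% of all genes). Of the ER stress list, 19 were tested, 2 were higher in neurons (Manf, 0.45 ± 0.08, and Atf6, 0.27 ± 0.08) and 12 lower, against the same shares of all genes, with a median of −0.42. The protein disulfide isomerase P4hb (−1.13 ± 0.15) and the ER-associated degradation gene Herpud1 (−1.01 ± 0.11) were the lowest. In microglia 11 of 19 genes of the ER list were higher and 1 lower (32.1% and 33.1% of all genes), among the first Edem1 (1.95 ± 0.15) and Canx (1.19 ± 0.11).

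No chaperone gene passed the threshold between 3 and 6 months in any of the 6 cell types with edgeR's quasi-likelihood test. This covers 67 members tested in excitatory nuclei, 58 in inhibitory nuclei, 55 in oligodendrocytes, 42 in OPC, 21 in astrocytes and 50 in microglia. The share of all genes called was equally near 0, at 0.00530%, 0%, 0.0319%, 0.0114%, 0% and 0.0443% in that order. At an unadjusted p under 0.05 there were 1, 1, 0, 2, 0 and 1 members, against 5.61%, 4.45%, 7.85%, 4.98%, 5.51% and 7.15% of all genes, and DESeq2 called 1 (Hspb1 in excitatory nuclei) and otherwise 0. With 2 mice per age the median SE of a member's log2 difference was 0.20 in excitatory nuclei and 0.20 in inhibitory nuclei but 0.28 in microglia and 0.49 in astrocytes. Even differences well above 1 SE did not pass, such as Dnajc18 in OPC (−0.86 ± 0.28, adjusted p = 0.758 in edgeR's test). The lack of calls thus does not exclude changes well above these SEs, in neurons or glia. The median log2 difference of the members was −0.10 in excitatory nuclei and 0.04 in microglia, against −0.02 and 0.00 over all genes. None of the genes tested from the co-chaperone and ER stress lists passed in any type.

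**Figure D3:**
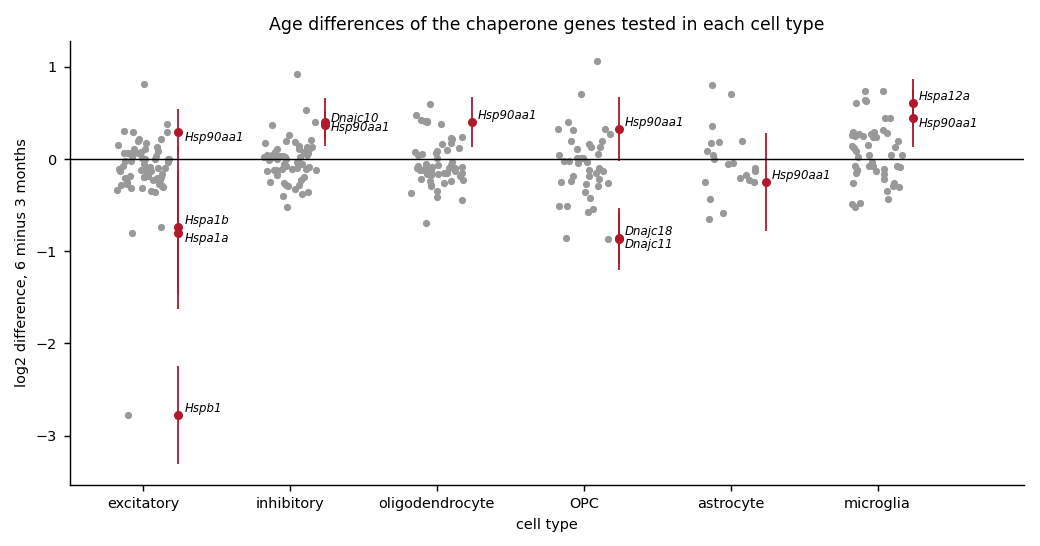
Log2 difference of 6 from 3 months for each chaperone gene tested in each cell type (grey points), with named genes again in red with their SE. Most points lie within 0.5 of 0 in the neuronal types, and Hspb1 in excitatory nuclei (−2.78 ± 0.53) lies farthest out.

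Hspb1, the small heat shock protein HSP27 in humans (chr5:135887919-135889563), had 81, 88, 18 and 4 UMIs in excitatory nuclei, or 2.23, 2.31, 0.555 and 0.120 CPM. Both 6-month libraries lay below both 3-month libraries, and the log2 difference was −2.78 ± 0.53 (unadjusted p = 6.49e-04, adjusted p = 0.677). It passed with DESeq2 (−2.79, adjusted p = 0.0141) and with the batch number as a block (−2.90, adjusted p = 0.0284). The molecules behind it came from very few nuclei that were also rich in Hspa1a and Hspa1b. In 3M-1 1 nucleus held 74 of the 81 UMIs, in 3M-2 1 nucleus held 78 of 88, and in 6M-1 1 nucleus held 12 of 18. What was left was 7, 10, 6 and 4 UMIs per library, and Hspb1 was then too low to be tested.

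The other members at an unadjusted p under 0.05 were Dnajc10 in inhibitory nuclei, Dnajc18 and Dnajc11 in OPC and Hspa12a in microglia. Dnajc10 went from 42.6 and 52.5 CPM at 3 months to 62.3 and 59.0 at 6 months (0.37 ± 0.16, adjusted p = 0.960). Dnajc18, a J protein of class C, was 84.0, 74.9, 42.1 and 45.1 CPM in OPC (−0.86 ± 0.28, adjusted p = 0.758). Both 6-month libraries lay below both 3-month ones in all 6 types, as in excitatory (64.2, 48.2, 45.3 and 47.2 CPM) and inhibitory nuclei (83.2, 64.7, 62.1 and 61.9 CPM). The 6 types came from the same 4 mice and are not independent repeats. In excitatory nuclei 13 of 67 members tested lay wholly below at 6 months and 8 wholly above, and the share of all genes is not given here. With all 4 libraries no difference of Dnajc18 or Dnajc10 passed the adjusted threshold. Without 3M-2 both passed in inhibitory nuclei (Dnajc18 −0.44 ± 0.13, adjusted p = 0.0142, and Dnajc10 0.49 ± 0.15, adjusted p = 0.0153), where that fit called 10.9% of all genes. Dnajc11, of the mitochondrial cristae, was 59.5, 44.9, 33.1 and 23.5 CPM in OPC (−0.87 ± 0.34). Hspa12a in microglia was 38.5, 57.8, 78.1 and 66.8 CPM (0.61 ± 0.26, adjusted p = 0.675), with both 6-month libraries above both at 3 months, as in oligodendrocytes (0.60 ± 0.28). In OPC it went the other way (−0.51 ± 0.52), with both 6-month libraries below both at 3 months. Its mean fell from 64.8 to 59.8 CPM in inhibitory nuclei and rose from 87.0 to 95.9 in excitatory nuclei. Of 50 members tested in microglia, 9 lay wholly above at 6 months and 4 wholly below. In microglia the summed excitatory markers were 233, 459, 335 and 371 CPM in the same libraries, and the inhibitory ones 115, 199, 397 and 212 CPM, and their part in the Hspa12a level was not tested.

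Whether age differences were unlike in neurons and glia was tested as an interaction over all 24 sums, and 0 of 59 members passed (edgeR's quasi-likelihood test, 0% of 15430 genes). At an unadjusted p under 0.05 there were 4 members (Dnajc11, Dnaja2, Dnaja4 and Dnajc3), against 6.70% of all genes, and DESeq2 called 0. The smallest adjusted p of a member was 0.359.

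Hsp90aa1, Hsp90ab1 and Hspa8 differed more in CPM between the 2 libraries of 3 months than between the mean levels of the ages, in each of the 6 types. Single libraries vary more than means, the share of all genes with this pattern was not counted, and the 6 types share the same mice. The pattern is thus a description and not a test. Other abundant cytosolic members were mixed in this pattern. In excitatory nuclei Hspa4, with 124, 127, 105 and 128 CPM, and Dnajc7, with 82.5, 78.9, 75.8 and 74.8 CPM, did not share it. Dnaja1 did share it there, with 48.9, 62.1, 56.2 and 57.0 CPM and age means of 55.5 and 56.6. So did Dnaja2, with 143, 177, 135 and 148 CPM and age means of 160 and 141. Hsp90aa1, the inducible cytosolic HSP90, was 49.5, 92.6, 93.2 and 83.9 CPM in excitatory nuclei, 62.0, 113, 133 and 94.6 in inhibitory nuclei, 45.5, 126, 101 and 96.1 in OPC, 37.0, 148, 81.6 and 79.2 in astrocytes and 55.8, 127, 115 and 128 in microglia. In these 5 types and in oligodendrocytes 3M-1 was the lowest library, while 3M-2 lay among the 6-month libraries or above them. Hsp90aa1 therefore gave log2 differences with age of 0.30 ± 0.24, 0.40 ± 0.26, 0.40 ± 0.27, 0.33 ± 0.34, −0.25 ± 0.53 and 0.45 ± 0.31 in excitatory, inhibitory, oligodendrocyte, OPC, astrocyte and microglia nuclei, none past the threshold. Hspa8 was 50.6, 109, 85.1 and 65.8 CPM in excitatory and 62.3, 148, 118 and 80.8 in inhibitory nuclei, and its age differences there were −0.10 ± 0.29 and −0.06 ± 0.33. By the batch number of the labels, batch 1 (3M-1 and 6M-1) ran from 49.5 to 93.2 CPM of Hsp90aa1 in excitatory nuclei and batch 2 (3M-2 and 6M-2) from 92.6 to 83.9, in opposite directions.

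Summed over Hsp90aa1, Hsp90ab1 and Hspa8, the level was 199.9, 359.7, 349 and 279 CPM in excitatory nuclei, 388, 920.0, 798 and 834 in oligodendrocytes and 339, 510.4, 453 and 519.5 in microglia. The other 73 members together varied far less, with 2507, 2666, 2427 and 2575 CPM in excitatory nuclei and 2678, 2913, 2749 and 2861 in oligodendrocytes. The transcripts of 83 ribosomal protein genes moved with the first group, at 1261, 1966, 1753 and 1633 CPM in excitatory nuclei and 2108, 3977, 3539.7 and 3856 in oligodendrocytes. The 13 mitochondrially encoded genes were 36.6, 46.9, 43.6 and 41.1 CPM in excitatory nuclei, 28.9, 40.9, 44.6 and 46.8 in oligodendrocytes and 89.9, 201, 171 and 79.2 in astrocytes. The 10 immediate early genes, which answer to handling and activity, were 247, 289.8, 265 and 296 CPM in excitatory nuclei and 82.1, 125, 123 and 181 in oligodendrocytes. In excitatory nuclei and oligodendrocytes 3M-1 was the lowest library for both sets. In inhibitory nuclei it was the lowest for neither, with 40.4, 44.6, 45.3 and 39.6 CPM and 102, 123, 94.9 and 119 CPM. For the immediate early genes it was not the lowest in OPC or astrocytes either. Median UMIs per nucleus were highest in 3M-1, with 11265.5, 7573, 9916 and 10670 in excitatory nuclei. In oligodendrocytes they were 2814, 1634, 1986 and 2292. The part of any of these, or of depth, in the chaperone levels was not tested. Noticed in the data and then counted, 3M-1 was the lowest of the 4 libraries in all 5 types other than astrocytes for 7 of 56 members (12.5%: Dnaja1, Dnajb9, Dnajc10, Dnajc19, Hsp90aa1, Hsp90ab1 and Hspa8), for 5.84% of all genes tested and for 46 of 80 ribosomal protein genes (57.5%).

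The age result for these genes accordingly turned on single libraries. Without 3M-2, with 3M-1 as the lone 3-month library and assumed to vary like the others, Hsp90aa1 passed as higher at 6 months in excitatory nuclei (0.77 ± 0.15), inhibitory nuclei (0.87 ± 0.13), oligodendrocytes (0.97 ± 0.17), OPC (1.13 ± 0.31) and microglia (1.06 ± 0.22). These fits called 4.55%, 10.9%, 6.00%, 1.17% and 3.51% of all genes in that order, and 2, 5, 3, 1 and 1 chaperone genes. Without 3M-1 instead, Hspa8 passed as lower at 6 months in inhibitory nuclei (−0.54 ± 0.12) and OPC (−1.16 ± 0.26), in fits that called 1.25% and 0.225% of all genes, against 0.67 ± 0.13 in inhibitory nuclei without 3M-2.

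**Figure D4:**
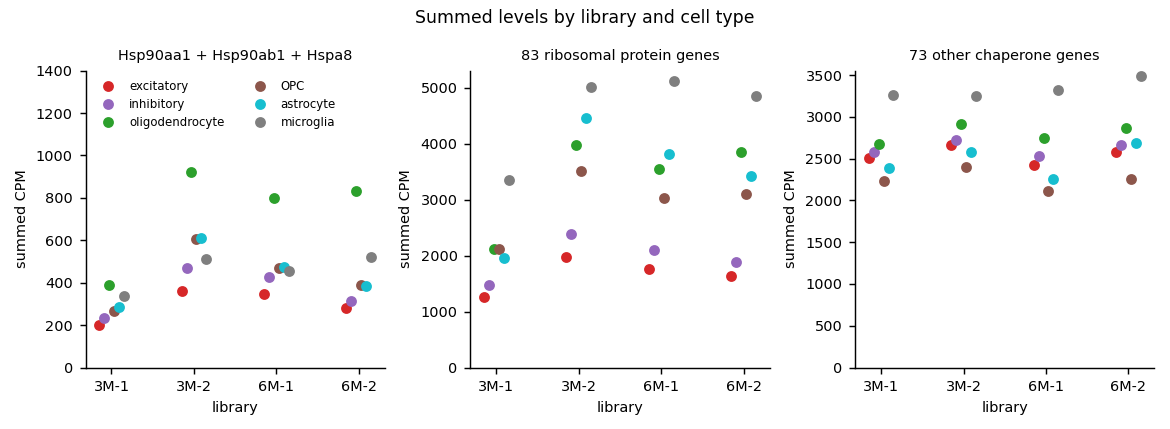
Summed CPM of Hsp90aa1, Hsp90ab1 and Hspa8 (left), of 83 ribosomal protein genes (middle) and of the 73 other chaperone genes (right) in each library, with cell types as colours and linear axes from 0. The 3M-1 points are the lowest of their cell type in the left and middle panels, as in excitatory nuclei with 199.9 against 279 to 359.7 CPM of the first group.

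The inducible HSP70 genes Hspa1a (chr17:34969190-34972156) and Hspa1b (chr17:34956436-34959238), near-identical neighbours whose counts cannot be fully separated, had no UMI in most nuclei, which at this depth does not limit the share of nuclei that express them. Of 30515 nuclei, 349 held 1 UMI of either, 18 held 2 to 9 and 10 held 10 or more. Those 10 nuclei held 1619 of the 2028 UMIs (79.8%). They were 3 of 6802 nuclei in 3M-1 (0.0441%, exact 95% binomial interval 0.00910 to 0.129%), 4 of 8750 in 3M-2 (0.0457%, 0.0125 to 0.117%), 3 of 8111 in 6M-1 (0.0370%, 0.00763 to 0.108%) and 0 of 6852 in 6M-2 (0 to 0.0538%). Taken as 3 counts, the limit for 6M-2 is a share of up to 0.0438%. The 4 exact intervals overlap and cover counting error only. By the gate 7 of the 10 were excitatory and 3 belonged to no type, and no such nucleus was found among 3028 inhibitory, 4422 oligodendrocyte, 639 OPC, 195 astrocyte and 2065 microglia nuclei. These types had fewer nuclei than the 13066 excitatory ones. Their median UMIs per nucleus were also lower, as in 3M-1 with 2214 in microglia against 11265.5 in excitatory nuclei. Finding no such nucleus among them thus does not set excitatory nuclei apart.

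The most extreme nucleus, in 3M-2, held 237 UMIs of Hspa1a, 228 of Hspa1b and 78 of Hspb1 among 13233, so that the HSP70 pair made 3.51% of its RNA. The highest in 3M-1 held 254 and 138 UMIs of the pair, with 74 of Hspb1, 84 of Dnajb1, 67 of Hsph1 and 31 of Hspd1 among 22061 UMIs, and the highest in 6M-1 held 156 and 175, with 12 of Hspb1 and 40 of Hsph1. Over all 10 nuclei Hsph1 gave 254 UMIs, Hspb1 173, Dnajb1 153, Hspa8 138, Hsp90aa1 119, Hspe1 68 and Hspd1 59, while BiP (Hspa5), the ER member, gave 16 and Cryab 1. Of the immediate early genes, Jun gave 287 UMIs, from 0 to 154 per nucleus with 7 of the 10 holding any, and Fos 224, from 1 to 109 per nucleus. Hspa1a, Hspa1b and Hspb1, whose promoter stretches are printed with their elements, had 934 of 1218, 685 of 810 and 173 of 266 of their UMIs in the 10 nuclei. The 10 nuclei held 806 to 22061 UMIs in all.

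In sums over excitatory nuclei, 7 of these nuclei held most UMIs of the pair, 1318 of 1519. Hspa1a was 7.76, 7.75, 8.23 and 0.988 CPM and Hspa1b 4.35, 6.81, 6.60 and 0.270, low in 6M-2 alone, with log2 differences with age of −0.80 ± 0.68 and −0.74 ± 0.88. Without 6M-1, which leaves 6M-2 as the lone 6-month library, Hspa1a (−2.98 ± 0.50), Hspa1b (−4.36 ± 0.63) and Hspb1 (−4.22 ± 0.76) passed, among 0.0568% of all genes. In all other excitatory nuclei Hspa1a was 0.551, 1.18, 1.27 and 0.988 CPM and Hspa1b 0.468, 0.682, 0.309 and 0.270, and without the 10 nuclei the Hspa1a difference turned to 0.35 ± 0.42. In inhibitory nuclei Hspa1a was 1.72, 1.87, 1.52 and 0.884 CPM and in oligodendrocytes 1.20, 3.83, 1.42 and 2.00, from 11, 10, 11 and 5 and 3, 6, 5 and 6 UMIs, and single UMIs this thinly spread cannot be told from free RNA. Dnajb1 and Hsph1 depended on these nuclei less, since in the excitatory nuclei without them they were still 2.34, 4.67, 4.23 and 3.59 and 33.8, 50.3, 37.9 and 40.9 CPM.

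**Figure D5:**
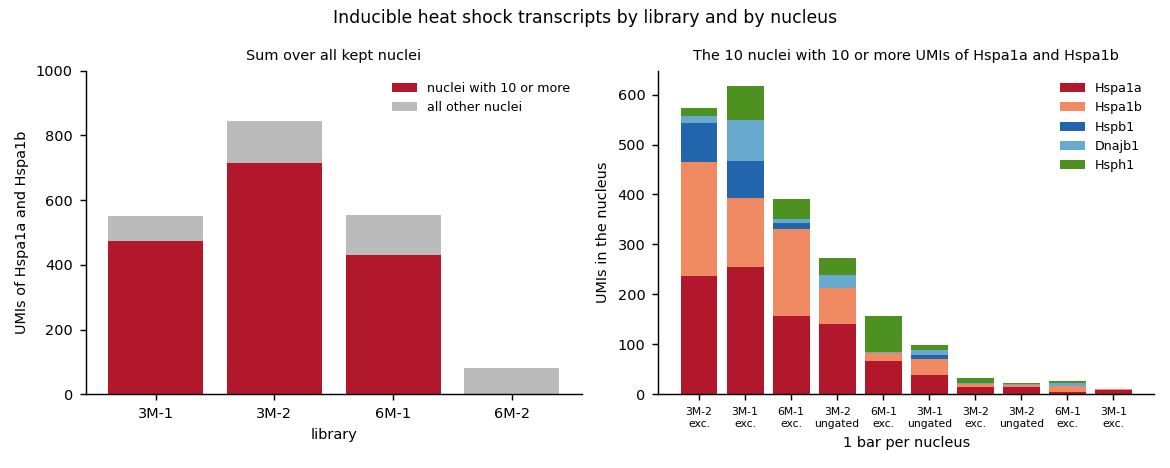
UMIs of Hspa1a and Hspa1b summed over all kept nuclei of each library, split into the nuclei with 10 or more of them and all others (left), and UMIs of 5 heat shock genes in each of those 10 nuclei, labelled by library and gated type (right), on linear axes from 0. The 10 nuclei hold 1619 of 2028 UMIs of the pair, and 6M-2, with 80 UMIs in all, has none of them.

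The small heat shock proteins were otherwise scarce. Hspb8 had 7, 7, 6 and 7 UMIs in inhibitory nuclei and at most 4 in any other sum, Hspb6 at most 9 UMIs per sum, and Hspb1 0 UMIs in all OPC and astrocyte sums. Outside the 6 types, the 18 nuclei of the endothelial list held 15 UMIs of Hspb1 among 29411 UMIs in all, and the 34 of the mural and fibroblast list 3 among 53532.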

How the data were processed

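Nuclei from the cerebral cortex of 4 mice were profiled by 3′ droplet sequencing. The deposited matrices give whole UMI counts without normalization, which the authors made with Cell Ranger 7.0.0 on mm10; the annotation, the strand setting and the use of intronic reads are not given in the sources used here. Nuclei with at most 7000 genes and at most 1% mitochondrial UMIs were kept, as in the authors' filter, and gated by marker lists. No doublet caller was run. The gate leaves out nuclei in which no list's marker share reached the required multiple of every other list's share. Nuclei with a smaller share of another list's markers were kept, so doublets may remain among the gated nuclei. Counts were summed per library and type. Differences were tested with edgeR 4.0.16 in R 4.3.3 (TMM factors, filterByExpr, quasi-likelihood F-test, adjusted p under 0.05), without a block for age and with the mouse as a block between types, and with DESeq2 1.42.0 as an alternative. The SE is the log2 difference divided by the square root of F. The fits were tested on simulated data. Members, gene lists and tests were chosen with earlier results of these data known, and the contrasts of each type with the rest, the scaling by library totals and the sums without nuclei rich in Hspa1a and Hspa1b were added after seeing these files. Named genes were those past an age or interaction threshold, a fixed set by role, the 8 largest differences in each direction between neurons and glia and the 3 highest levels per type; the other genes named for a single cell type, an unadjusted p or 1 library were chosen after their values were seen. The labels' batch number pairs 3M-1 with 6M-1 and 3M-2 with 6M-2; deviations of paired libraries correlated at −0.132 to −0.00887 over the 6 types. Of the 76 genes, 34 overlap an antisense gene (such as Hspd1 and Hspe1), and reads of such pairs may not be separable. Intervals cover counting error only. Some values are not reported here.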

Additional observations from a re-analysis of the deposited data

Results flagged for a closer look

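The nuclei that no marker list gated entered no comparison, yet they held 417 UMIs of Hspa1a and Hspa1b, the inducible HSP70 genes, against 1519 in excitatory nuclei and 2 to 47 in each of the other 5 types. These UMIs were not independent counts, since few nuclei held most of them. Of the 6944 ungated nuclei 3 had 10 or more UMIs and held 301 of the 417, with 1 in 3M-1 and 2 in 3M-2.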

How the results depend on the processing

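Of the counts of chaperone genes recomputed under the alternatives, 197 stayed within 1.5 times the reported count and 13 did not. The count changed with age in excitatory nuclei was 1 with DESeq2 and 1 with the batch number as a replicate block (Hspb1 in both), and the paired fit changed no other call with age. Between types, the astrocyte excess of Hspa5 was lost without the mouse as a block (0.94, adjusted p = 0.0757). Leaving out each library in turn gave 0 to 3 such genes in excitatory nuclei, 0 to 5 in inhibitory nuclei, 0 to 3 in oligodendrocytes, 0 to 1 in OPC and 0 to 1 in microglia. The 3 in excitatory nuclei, without 6M-1, were Hspb1, Hspa1a and Hspa1b, where 0.0568% of all genes were called. The highest counts in inhibitory nuclei and oligodendrocytes came without 3M-2, where 10.9% and 6.00% of all genes were called. OPC differed from the other types in 9 genes with a marker share of at least 3 times (15 as reported). Of all genes, 2975 of 14033 were called there, against 4903 of 14316 as reported. Astrocytes differed in 13 genes without a filter on low counts, where 4726 of 27105 genes were called, against 4299 of 14316 as reported. With a library left out the astrocyte count changed too. The share of all genes is not given for these fits, so that change cannot be read as one of the chaperones. The Hspa1a difference with age in excitatory nuclei turned to 3.18 with a marker share of at least 3 times and to 0.35 without the 10 nuclei rich in it, and ran from −2.98 to 0.028 with a library left out. That of Hspa1b turned to 3.25 with the stricter gate and ran from −4.36 to 0.19. Other causes of these changes were not tested. Depth limits astrocytes most, with 21 of 76 members testable with age.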
